A study of Mus musculus with 8 samples.

Results

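The 8 genes described here encode the amino acid transporters best known from activated T cells: Slc7a5, Slc3a2, Slc1a5, Slc38a1, Slc38a2, Slc7a1, Slc7a6 and Slc1a4. They were chosen by name, and all 8 were found among 19938 named genes on the array. A gene was read from probe sets that the platform annotation assigns to that gene only, and where there were several, the brightest on average was used. Messenger RNA was measured on Affymetrix whole-transcript arrays in CD4 T cells of wild-type mice (WT, 4 arrays) and of mice with a T cell-specific conditional Bcl6-/- genotype (KO, 4 arrays). Both groups were sorted as naive cells and treated alike for 24 hours: CD3 and CD28 were engaged by antibodies, IL-6 and IL-21 were added, and IL-4, TGF beta and interferon gamma were blocked, a mixture that favours follicular helper T (Tfh) cells. The labels call the cells Tfh cells, name neither the Cre line nor the age of the mice, and leave unsaid whether each array had its own mouse, so p-values reflect only the variation among arrays, some of which may be technical.

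A resting T cell takes up few amino acids, and stimulation through the T cell receptor and CD28 raises the transporters that feed protein synthesis and the growth-controlling kinase complex mTORC1. Slc7a5 is the light chain and Slc3a2 the heavy chain (CD98) of the system L exchanger, which brings in leucine and other large neutral amino acids in exchange for glutamine. Slc1a5, Slc38a1 and Slc38a2 bring in glutamine and other small neutral amino acids, Slc7a1 brings in arginine and lysine, Slc7a6 is a second light chain of CD98 that exchanges cationic for neutral amino acids, and Slc1a4 carries alanine, serine and cysteine. Several of these genes are transcribed under the control of Atf4, a factor of the amino acid starvation response that binds C/EBP-ATF response elements.

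None of the 8 transporters differed between the KO-labelled and the WT-labelled arrays past the threshold, a limma adjusted p of 0.05 over 11926 tested genes. Among all tested genes 1.32% passed (157 genes, 0.646% higher and 0.671% lower in KO), and 16.6% had an unadjusted p under 0.05, as did 0 of the 8 transporters. The differences ran from -0.07 (Slc1a5) to 0.04 (Slc1a4) on the log2 scale, with a median of 0.03 against -0.02 over all tested genes. The mean was higher in KO for 7 of the 8, as for 42.1% of all tested genes. The groups overlapped in all 8 genes, whereas they did not overlap in 10.8% of all tested genes. All 8 transporters lay above the expression filter in each of the 8 arrays.

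**Figure D1:**
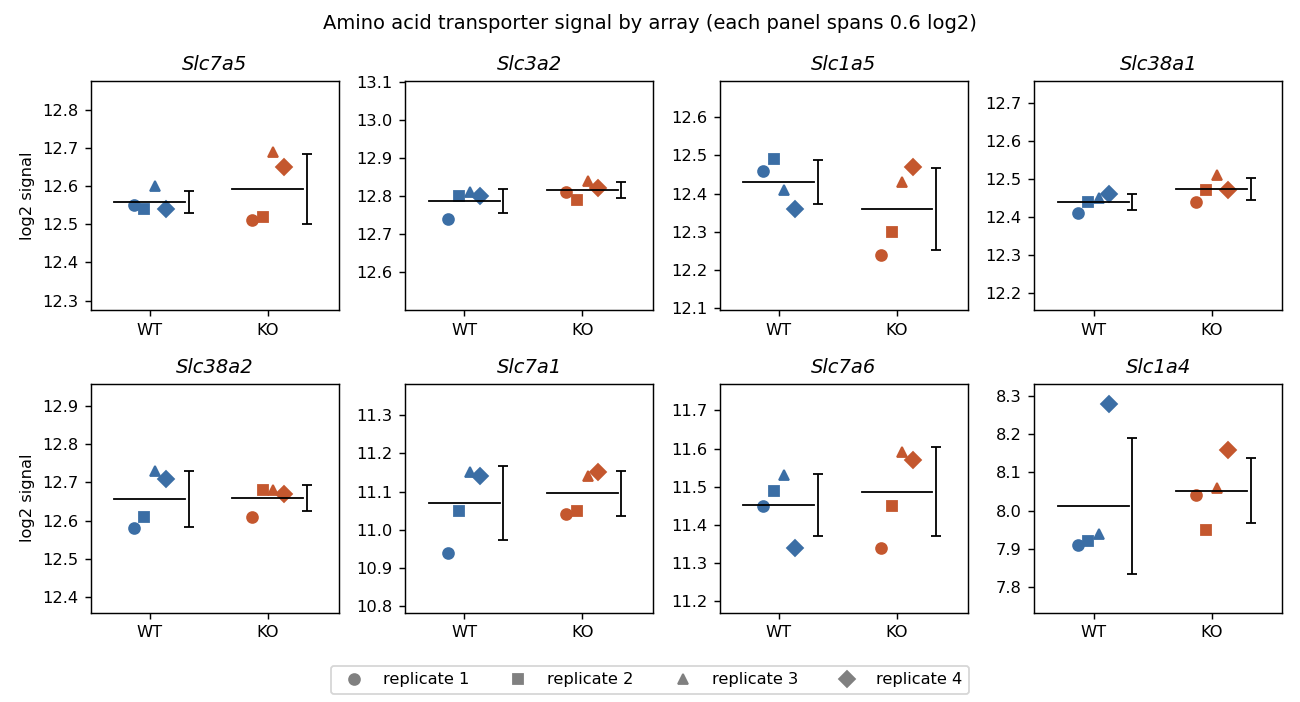
Log2 signal (vertical axis) of the 8 transporters in 4 WT and 4 KO arrays, with marker shapes for replicate numbers, horizontal lines for group means and bars for 1 SD. Every panel spans the same 0.6 log2 units. The groups overlap in each panel, and WT replicate 4 stands alone at 8.28 for Slc1a4.

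The system L light chain Slc7a5 read 12.55, 12.54, 12.6 and 12.54 (log2 signal) in WT replicates 1 to 4 and 12.51, 12.52, 12.69 and 12.65 in KO replicates 1 to 4. The KO-labelled arrays therefore held both the lowest and the highest values, replicates 1 and 2 below all WT-labelled arrays and replicates 3 and 4 above them. The group levels were 12.6 ± 0.0287 in WT and 12.6 ± 0.0911 in KO (SD, n = 4), a log2 difference of 0.04 ± 0.0535 (standard error; adjusted p by limma 0.83, by exact permutation 0.514, two-sided). The 95% interval of the difference ran from -0.08 to 0.15, so it reached at most a 1.11-fold rise.

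Slc3a2, the CD98 heavy chain that carries the light chains to the cell surface, read 12.74, 12.8, 12.81 and 12.8 in WT and 12.81, 12.79, 12.84 and 12.82 in KO. WT replicate 1 was the lowest array and the other 7 lay within 12.79 to 12.84. The log2 difference was 0.03 ± 0.0411 (standard error; adjusted p by limma 0.824, by exact permutation 0.286), with a 95% interval from -0.06 to 0.12. The whole spread of Slc3a2 over the 8 arrays was 0.1 on the log2 scale, as was that of Slc38a1.

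Slc7a6, the other CD98 light chain, read 11.45, 11.49, 11.53 and 11.34 in WT and 11.34, 11.45, 11.59 and 11.57 in KO. As for Slc7a5, the highest values were in KO replicates 3 and 4, while KO replicate 1 shared the lowest value with WT replicate 4. The log2 difference was 0.04 ± 0.0674 (standard error; adjusted p by limma 0.872, by exact permutation 0.686), with a 95% interval from -0.12 to 0.19.

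Slc1a5, the sodium-dependent glutamine exchanger, was the only transporter with a lower mean in KO. It read 12.46, 12.49, 12.41 and 12.36 in WT and 12.24, 12.3, 12.43 and 12.47 in KO. KO replicates 1 and 2 lay below every WT-labelled array, and KO replicates 3 and 4 lay among them. The group levels were 12.4 ± 0.0572 in WT and 12.4 ± 0.108 in KO (SD, n = 4), a log2 difference of -0.07 ± 0.0612 (standard error; adjusted p by limma 0.646, by exact permutation 0.343). Its 95% interval, -0.21 to 0.07, reached at most a 1.15-fold fall.

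The system A glutamine carrier Slc38a1 read 12.41, 12.44, 12.45 and 12.46 in WT and 12.44, 12.47, 12.51 and 12.47 in KO. The KO-labelled values lay slightly higher, with an overlap at 12.44 to 12.46. The log2 difference was 0.03 ± 0.0408 (standard error; adjusted p by limma 0.777), and its exact permutation p, 0.171, was the smallest of the 8 transporters (4 against 4 arrays can give no less than 0.0286). Slc38a1 also had a second, dimmer probe set, which read 8.45, 8.69, 8.59 and 9.11 in WT and 8.42, 8.98, 9.05 and 9.4 in KO. That probe set varied far more within each group, and its difference of 0.25 ± 0.198 (SE) did not pass either (limma adjusted p = 0.598 with every probe set tested on its own, by exact permutation 0.371). Its 95% interval ran from -0.19 to 0.70, much wider than that of the brighter probe set (-0.06 to 0.12). The probe sets thus differed in size and in spread but not in sign.

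Slc38a2, the system A carrier that cells raise when amino acids run short, read 12.58, 12.61, 12.73 and 12.71 in WT and 12.61, 12.68, 12.68 and 12.67 in KO. The KO-labelled values lay entirely within the WT-labelled range. The group means differed by 0.0025 on the log2 scale (SE 0.0497, limma adjusted p = 0.991, by exact permutation 1), with a 95% interval from -0.11 to 0.11.

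Slc7a1, the arginine and lysine carrier, read 10.94, 11.05, 11.15 and 11.14 in WT and 11.04, 11.05, 11.14 and 11.15 in KO. WT replicate 1 was the lowest array and the remaining values of the groups matched closely. The log2 difference was 0.03 ± 0.0586 (standard error; adjusted p by limma 0.898, by exact permutation 0.886), with a 95% interval from -0.11 to 0.16.

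Slc1a4, the alanine, serine and cysteine carrier, varied most between arrays, over 0.37 on the log2 scale. It read 7.91, 7.92, 7.94 and 8.28 in WT and 8.04, 7.95, 8.06 and 8.16 in KO. All 4 KO-labelled arrays lay above the lowest 3 WT-labelled arrays and below WT replicate 4. The log2 difference was 0.04 ± 0.0864 (standard error; adjusted p by limma 0.888, by exact permutation 0.657), and without WT replicate 4 it was 0.13 with a limma adjusted p of 0.316.

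With all 8 arrays fitted, the intervals around these differences were narrow for the brightest probe set of each gene. No 95% interval of these 8 ended farther from 0 than 0.23 on the log2 scale in that fit. That end is the 1.18-fold rise allowed for Slc1a4, whose difference was 0.13 ± 0.0574 (SE) without WT replicate 4. In the fit of all 8 arrays the 8 intervals lay within 0.25 of 0, a bound chosen after the values were seen. So did those of 62.5% of all tested genes. Neither bound need hold with 1 array left out, where Slc1a4 differed by 0.07 ± 0.0948 (SE) without KO replicate 2. The dimmer Slc38a1 probe set went past the bound of 0.25 (to 0.70), and the mean over both Slc38a1 probe sets differed by 0.14 ± 0.108 (SE). The median standard error was 0.056 for the transporters and 0.064 for all tested genes. The 157 genes that passed, which the threshold picks for changes large beside their spread, had a median size of change of 0.35. The intervals hold for values made with RMA, whose standard steps include a quantile normalization that hides a change shared by all transcripts, and a p above the threshold does not show that the groups are equal.

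**Figure D2:**
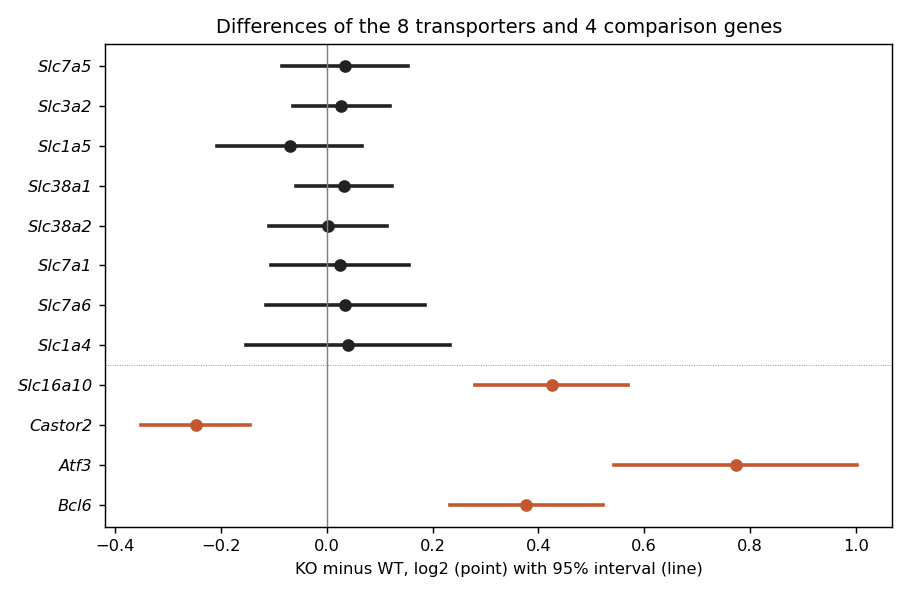
KO minus WT differences (log2, horizontal axis; points) with 95% intervals (lines) for the 8 transporters, above the dotted line, and for Slc16a10, Castor2, Atf3 and Bcl6. The 8 transporter intervals include 0 and end within 0.23 of it. Those of the other 4 genes do not include 0, but Slc16a10, Castor2 and Atf3 were named because they passed.

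The targeted gene and the arrays themselves bear on these values as follows. The Bcl6 transcript was the higher one in KO (log2 signal of 8.77 ± 0.123 in WT and 9.15 ± 0.0497 in KO, SD, n = 4, adjusted p by limma 0.0303), a call lost without WT replicate 3 or 4 or KO replicate 2, 3 or 4 (adjusted p of 0.0591 to 0.11), with the replicate number as a block (0.0606) and without a filter (0.0595). Its 1 named probe set may lie outside the deleted exons, so it does not check the labels, and directions are those of the arrays as labelled. KO replicate 1 stood apart, with a median log2 deviation from its group of 0.115, where KO replicates 2 to 4 had 0.04 to 0.0725, and it correlated best with WT replicate 3. Without KO replicate 1 the number of genes past the threshold was 782 of 11926, in place of 157. In that fit 0 of the 8 transporters passed, which is near that share, and their differences ran from -0.03 (Slc1a5) to 0.08 (Slc7a6). Without both KO replicate 1 and WT replicate 3 the transporter differences ran from -0.04 (Slc1a5) to 0.11 (Slc7a6). In that fit 0 of them and 443 of all 11926 tested genes passed.

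**Figure D3:**
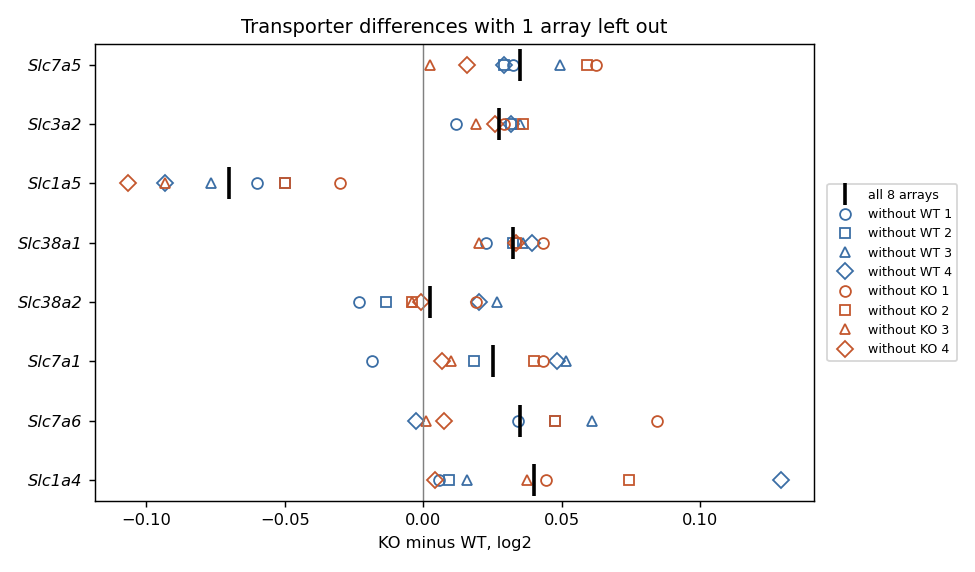
KO minus WT differences (log2, horizontal axis) of the 8 transporters over all 8 arrays (black bars) and with 1 array left out (open markers, blue for a WT and orange for a KO array left out). All values lie between -0.11 and 0.13, and those of Slc38a2, Slc7a1 and Slc7a6 fall on both sides of 0.

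Both groups expressed genes of T cell identity and activation, though there was no array of unstimulated cells for comparison. All 12 T cell identity genes and all 10 activation genes on the array were above the filter, and 0 of each passed, with 3 and 4 genes at an unadjusted p under 0.05; the smallest p in these lists belonged to the surface glycoprotein gene Thy1 (0.24, limma adjusted p = 0.123) and to the growth factor gene Il2 (-0.42, adjusted p = 0.0782). Over all tested genes 16.6% had an unadjusted p under 0.05 and 1.32% passed. The mean log2 signal of the activation list lay between 11.83 and 11.91 in WT and between 11.76 and 11.87 in KO. Of 10 B cell, 17 myeloid and 7 erythroid and platelet genes, 2, 3 and 3 were tested and 0 passed (0, 1 and 0 at an unadjusted p under 0.05). The smallest p in these lists were those of Ighm (0.14, limma adjusted p = 0.561), Cst3 (-0.16, 0.118) and Slc4a1 (-0.08, 0.762). Ms4a1, Csf1r and Ppbp were under the filter in all 8 arrays, while Cd79b, Cd68, Cst3, Slc4a1, Itga2b and Gp9 were above it in all 8. Cst3 was bright, at 11.87 in WT and 11.71 in KO. The mean of 13 CD8 T and NK cell genes, of which 8 were tested, 0 passed and 5 had an unadjusted p under 0.05, was 7.63 to 7.97 in WT and 7.49 to 7.68 in KO. Its differences ran from -0.89 (the cytotoxic granule gene Nkg7) to 0.35 (the protease gene Gzmb), with the smallest p for Ctsw (-0.52, limma adjusted p = 0.0696). The groups did not overlap, with KO lower, in 4 of the 8 (Ctsw, Crtam, Nkg7 and Prf1), against 10.8% of all tested genes in either direction. The coreceptor genes Cd8a and Cd8b1 were above the filter in all 8 arrays and differed by -0.04 and 0.03, while Klrb1c and Ncr1 were under it in all 8. Ctsw passed without WT replicate 4, and Crtam without KO replicate 1, fits in which 107 and 782 of all 11926 tested genes passed. Which cells these transcripts came from, and any part of such cells in the transporter values, was not tested. In such bulk samples fewer cells of a type and less RNA per cell cannot be told apart.

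Among the other amino acid carriers of the cell surface, 1 of 14 tested genes rose and 0 fell. Over all tested genes 0.646% rose and 0.671% fell past the threshold. Slc16a10, a carrier of aromatic amino acids and thyroid hormone, read 9.18, 9.19, 9.27 and 9.33 in WT and 9.52, 9.65, 9.71 and 9.79 in KO. All KO-labelled arrays lay above all WT-labelled arrays. It rose by 0.42 ± 0.0649 on the log2 scale (SE, 1.34-fold, limma adjusted p = 0.0191). The call was lost without WT replicate 1, 2 or 3 or KO replicate 2 or 3 (adjusted p of 0.0582 to 0.0941), while the difference stayed between 0.38 and 0.47 with any 1 array left out. The other 13 did not pass. Against 16.6% of all tested genes, 3 of the 14 had an unadjusted p under 0.05. These were Slc16a10, Slc7a3, a cationic amino acid carrier (0.20, limma adjusted p = 0.169), and the glycine carrier Slc6a9 (0.24, 0.222). The others included Slc43a1 (-0.01) and Slc43a2 (-0.03), carriers that also take leucine but without CD98, the last 4 named after their values were seen. The list median was 0.02, against -0.02 over all tested genes.

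Genes that sense amino acids for mTORC1, including the Rag GTPases, Ragulator and the GATOR complexes, held 1 fall and 0 rises among 34 tested. In this list 7 genes had an unadjusted p under 0.05, against 16.6% of all tested genes. Past the threshold 0.671% of all tested genes fell and 0.646% rose. Castor2, the partner of the arginine sensor Castor1, read 9.55, 9.55, 9.46 and 9.59 in WT and 9.33, 9.31, 9.27 and 9.25 in KO, with no overlap. It fell by 0.25 on the log2 scale (SE 0.0462, limma adjusted p = 0.0423). Castor1 itself differed by -0.14 (adjusted p = 0.444; named after its value was seen). The call for Castor2 was kept only without KO replicate 1 when 1 array was left out (adjusted p = 0.0132) and was lost in the other 7 fits (0.0748 to 0.157). It was also lost with the replicate number as a block (adjusted p = 0.108), with quantile normalization (0.0585), with median centring (0.0694), without a filter (0.102) and with the mean over its probe sets (0.111), the second of which differed by -0.10. Without KO replicate 1 the nuclear pore and GATOR gene Seh1l also passed, as a rise. In that fit 782 of all 11926 tested genes passed, in place of 157. Among 9 lysosomal carriers 0 passed and 1 had an unadjusted p under 0.05, namely Slc38a9, the lysosomal arginine sensor (0.22, limma adjusted p = 0.238), which passed without KO replicate 1. The list medians were -0.05 for sensing and 0.03 for lysosomal carriers.

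Genes that use the imported amino acids held no calls. Of 20 genes for cytosolic aminoacyl-tRNA synthetases and their partner proteins 0 passed. Iars, which charges isoleucine transfer RNA, had the smallest p (0.2 ± 0.0527, SE, limma adjusted p = 0.0919). Of 30 genes of amino acid and polyamine metabolism 0 passed, and the smallest p was that of Pycrl, which encodes a proline synthesis enzyme (-0.15, limma adjusted p = 0.118). Of 14 other nutrient carriers of activated T cells, for glucose, lactate, iron, phosphate and others, 0 passed, with the smallest p for the lactate carrier Slc16a3 (0.2, limma adjusted p = 0.276). These lists held 3, 7 and 1 genes with an unadjusted p under 0.05, against 16.6% of all tested genes. Without KO replicate 1, Iars and the asparagine synthetase gene Asns were higher and Bckdhb, a branched-chain amino acid breakdown gene, was lower past the threshold. In that fit 782 of all 11926 tested genes passed, in place of 157.

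**Figure D4:**
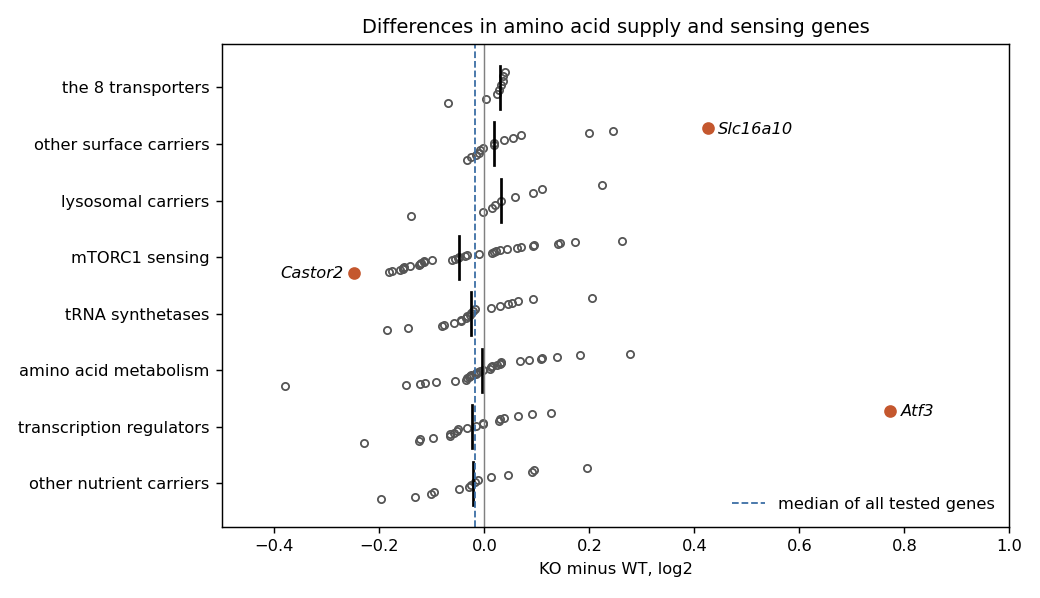
KO minus WT differences (log2, horizontal axis) of the tested genes of 8 lists, 1 row per list, with black bars for list medians, a dashed line for the median of all tested genes and filled orange points for genes past a limma adjusted p of 0.05. Only Slc16a10, Castor2 and Atf3 pass, and the 8 transporters lie between -0.07 and 0.04.

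In a list of 20 tested genes, mostly transcription factors and kinases known to set carrier transcription, 1 rose and 0 fell. Over all tested genes 0.646% rose and 0.671% fell past the threshold. Atf3, a stress-induced factor of the Atf4 pathway, read 7.48, 7.68, 8.02 and 7.8 in WT and 8.46, 8.61, 8.42 and 8.58 in KO, with no overlap. It rose by 0.77 ± 0.103 on the log2 scale (SE, 1.71-fold, limma adjusted p = 0.0099) and passed with any 1 array left out. Atf4 itself, named after its value was seen, differed by -0.12 and did not pass, nor did the remaining genes of the list, whose median was -0.02. Without KO replicate 1 the calls in this list were 2 higher and 1 lower, with Eif2ak2 and Nupr1 added to Atf3. In that fit 782 of all 11926 tested genes passed, in place of 157.

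RefSeq promoter windows (GRCm38.p6, 250 bases before to 50 after a start) were given for 5 of the 8 transporters, Slc3a2, Slc38a2, Slc7a1, Slc7a6 and Slc1a4, in 7 windows, and not for Slc7a5, Slc1a5 or Slc38a1. They were searched on both strands for the C/EBP-ATF response element, written TGATGNAA, and for the E-box CACGTG that Myc and related factors bind; an E-box can overlap a response element by its last letters, and no window held both. Among these windows that of Slc1a4 alone held a response element, 4 bases before its start and running across it, and none held the E-box. Sequence beyond the windows was not searched, so a gene without a match here may hold either pattern elsewhere. Over all 32851 windows 3.97% held the response element and 7.15% the E-box. Among the called genes of the lists, the windows of Slc16a10 and Castor2 held neither pattern. The stretch of Slc1a4 is shown beside those of Asns, a classic Atf4 target, and Atf3, because the pattern stands in the promoters of a transporter and an enzyme gene that did not pass and of a gene that rose. Capitals mark the match, on the reverse strand in Slc1a4 and Atf3, whose matched letters are the same, while Asns has another base at the free position N.
Slc1a4 (chr11:20332698-20332757, minus strand): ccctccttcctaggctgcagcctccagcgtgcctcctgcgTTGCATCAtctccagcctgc
Asns (chr6:7693213-7693272, minus strand): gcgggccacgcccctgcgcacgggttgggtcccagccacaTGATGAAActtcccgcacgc
Atf3 (chr1:191183424-191183483, minus strand): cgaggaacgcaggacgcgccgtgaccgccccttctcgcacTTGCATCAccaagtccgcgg
Asns, named after its value was seen, read 9.47, 9.55, 9.54 and 9.8 in WT and 9.69, 9.89, 10.02 and 9.87 in KO, a log2 difference of 0.28 ± 0.0863 (standard error; adjusted p by limma 0.146). The match of letters is a description and no evidence of binding.

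The 5 tested genes whose values over the 8 arrays were most like those of Slc7a5 were Thoc3, Mpdu1, Mbd4, Slc6a6 and Ptdss2, with Pearson r from 0.95 to 0.96 and Spearman rho from 0.794 (Mpdu1) to 0.939 over 8 arrays of shared processing. Without KO replicates 3 and 4, the arrays farthest from the Slc7a5 median, r was 0.976 for Thoc3, 0.943 for Slc6a6 and 0.917 for Ptdss2, and it fell to 0.809 for Mpdu1 and 0.734 for Mbd4. They were picked as the highest of all tested genes, so no p is given. Slc6a6, the taurine carrier, read 11.54, 11.55, 11.62 and 11.54 in WT and 11.46, 11.52, 11.67 and 11.67 in KO, with the same low and high arrays as Slc7a5. None of the 5 differed between the groups past the threshold (limma adjusted p of 0.715 to 0.97).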

How the data were processed

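The authors deposited 1 log2 value per probe set and array, 35556 probe sets in 8 arrays, made with RMA and Partek per the submitters' processing notes; versions, order and genome build are not given in the sources used here. Labelling used 100 ng of total RNA, per the labels' protocols. The array medians lay between 7.35 and 7.42. The number of arrays limits the precision. The platform annotation named 21789 probe sets with 1 symbol and 1621 with several, and 12146 were not listed there; all 8 transporters matched the RefSeq gene table (GRCm38.p6). A gene was tested if, in at least 4 arrays, it exceeded the 40th percentile of the probe sets with 1 symbol, which left 11926; that base for the percentile was settled after results were seen, to match an earlier processing of these data. Groups, from the sample titles, were compared two-sided with lmFit and eBayes of limma 3.58.1 (R 4.3.3) without a block, adjusted p-values were by Benjamini-Hochberg across all 11926 genes, and exact permutation tests were run for the transporters. Named genes were the 8 transporters, Bcl6, up to 4 called genes of each list (where there were none, the 1 of smallest p), and the 5 genes most like Slc7a5; any other gene in the text was named after its value was seen. Transporters, lists and rules were chosen with earlier results of these data known. In 20 simulations of 11926 genes, each gene kept its mean and spread, with independent normal noise alike in all arrays. The test recovered 85.8% of log2 changes of 0.5 and 99% of log2 changes of 1, and 5.25% of its calls were false. An array of larger spread, such as KO replicate 1, and changes as small as those of the transporters were not simulated. Alternatives covered normalization, filter, prior, array weights, the choice of probe set, a block for the replicate number, arrays left out and thresholds.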

Additional observations from a re-analysis of the deposited data

Results flagged for a closer look

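In 6 of 30 groups of 4 values, for the 8 transporters and 7 other named genes, 1 array lay far from the other 3. Chance gives about 1.5 for independent groups of unrounded normal values. These groups share arrays and are not independent, and the values are rounded in steps coarse beside most of the flagged spreads. WT replicate 3 was high for Slc7a5 (12.6, the others 12.54 to 12.55), for Slc6a6 (11.62, the others 11.54 to 11.55) and for Thoc3 (12.32, the others 12.25 to 12.26), and the latter genes were picked for their likeness to Slc7a5. WT replicate 1 was low for Slc3a2 (12.74, the others 12.8 to 12.81), and KO replicate 1 was low for Slc38a2 (12.61, the others 12.67 to 12.68). WT replicate 4 was high for Slc1a4 (8.28, the others 7.91 to 7.94). Apart from Slc1a4, the array that stood out was less than 0.1 away from its neighbours on the log2 scale.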

How the results depend on the processing

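The count of 0 transporters past the threshold held under all 22 alternatives, and limma adjusted p stayed at or above 0.306 for each transporter. Under each alternative 0 of 8 had an unadjusted p under 0.05. In the main fit 1.32% of all tested genes passed, so a count of 0 among 8 is near that share and says little about the transporters. Thresholds of 0.01 and 0.1 were read from the main fit, where the smallest limma adjusted p of a transporter was 0.646 (Slc1a5). The sign was not settled for 3 transporters: Slc38a2 became -0.0233, -0.0133, -0.00417, -0.00417 and -0.000833 without WT replicate 1 or 2 or KO replicate 2, 3 or 4, Slc7a1 became -0.0183 without WT replicate 1, and Slc7a6 became -0.0025 without WT replicate 4. Without KO replicate 1 and WT replicate 3 these were 0.0433, 0.07 and 0.11. Slc38a1 reached 0.14 with the mean over its probe sets, which differed by 0.03 and 0.25 on their own. The cause of the sign changes was not tested. Quantile normalization and median centring moved the median of all genes by 0.01. The count of 157 genes over all genes was 322 with quantile normalization, 78 with median centring (48 higher and 30 lower), 58 without a filter, 354 with a trend and robust prior, 1980 with array weights, 443 without KO replicate 1 and WT replicate 3, and 27 and 468 at thresholds of 0.01 and 0.1. It ran from 31 (without WT replicate 2) to 782 (without KO replicate 1) with 1 array left out. With the replicate number as a block it was 36, and the transporters kept 0 calls; same-numbered arrays deviated together at r of 0.0111, 0.145, -0.174 and 0.308, so the numbers are not taken as pairs. The rule for the filter did not say over which probe sets the 40th percentile is taken. Taken over all probe sets it gave 111 genes among 12573 tested, and over 1 probe set per gene it gave 141 among 11998, both with 0 transporters and both tried before the base used here, which was chosen after these counts were seen.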
